A study of Arabidopsis thaliana with 5 samples.

Results

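The 150 probe sets with the highest mean log2 value over 5 arrays of clipped Arabidopsis thaliana are described here, out of 22810 on the array. They were picked after leaving out 64 control probe sets, 77 probe sets annotated to plastid or mitochondrial genes, and the probe sets of RCA and LHCB4.1, which left 22667 eligible. Plants of the ecotypes Columbia (3 arrays) and Landsberg erecta (2 arrays) were cut at bolting to imitate mammalian browsing, and tissue labelled secondary meristem was taken on the following day. Seeds had 3 days of cold before planting. No other treatment than this and clipping is named in the labels. Apart from the erecta in the name Landsberg erecta, they name no transgene or mutation. Every array came from clipped plants, and the response to clipping was not analysed here. Growth was in a greenhouse with 16 h days, and the labels call the arrays biological replicates without saying how many plants went into each. The members were chosen by their level on these same arrays, so the levels are a description. The difference between the ecotypes was not used in the choice.

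Much of the messenger RNA in a growing shoot comes from a small number of genes. Dividing cells build ribosomes from a small and a large subunit, each with many proteins that are encoded in Arabidopsis by families of near-identical genes. Translation factors assist those ribosomes in making proteins. Green cells in addition keep high levels of nuclear transcripts for the photosystems, the light-harvesting antenna and the thylakoid ATP synthase, whose proteins are imported into the plastid. Signal on such an array also depends on how well each probe set binds, so that the order of 2 probe sets is an order of signal and not of transcript number.

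The array medians lay between 5.44 and 5.50 on the log2 scale, and the table ran from 2.15 to 15.13. Of 15 shoot meristem markers, 3 were measured under a named probe set, and all of them (CLV3, LAS and UFO) sat at the shared minimum of 2.15 on every array. Probe sets of some ribosomal protein genes sat there too. At the minimum, an absent transcript and a probe set without signal cannot be told apart. The labelled tissue could therefore not be checked by its defining markers. The green tissue markers RCA and LHCB4.1, an activase of Rubisco and an antenna protein, had log2 values of 14.37 to 14.60 and 13.59 to 13.89. The tapetum and anther markers AMS, EMS1 and A9, 3 of 4 on their list, were each lowest on Columbia replicate 3. Their summed signal there was 7.77 on the log2 scale, against 9.16 to 9.67 on the other arrays. Most of that sum was A9 (7.47, against 8.90 to 9.32). AMS had 4.95, against 5.97 to 6.96, and EMS1 had 3.34, against 4.93 to 5.74. GUT2, a gene of secondary walls in stems and 1 of 4 stem markers, was highest on that array (8.27, against 5.79 to 8.01). No marker of phloem, epidermis or trichomes was measured under a named probe set. Since these are bulk samples, fewer cells of a type and less RNA per cell cannot be told apart. With 5 arrays, the precision of each value is limited by their number.

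The members spanned mean log2 values from 13.08 to 15.11. Of the 150, 39 are annotated to 1 gene, 14 to several genes and 97 to no gene in the table used here, so the functions below were read from 53 probe sets. Unnamed probe sets made up 64.7% of the members and 38.4% of the 22746 probe sets without controls. IDs ending in _s_at or _x_at, which mark probe sets that can bind transcripts of several genes, made up 21.3% of the members and 4.66% of all probe sets. RefSeq gives 34 of the 39 single genes only the locus tag as a symbol, some of them with a synonym. Text patterns on symbols and synonyms placed 6 members in a functional group (2 in photosynthesis, 2 in primary metabolism, 1 in chromatin and 1 in stress response) and 0 in the ribosome. A second grouping used lists of loci for the ribosome, translation factors, photosynthesis, and the Calvin cycle with photorespiration, written from general knowledge of the Arabidopsis gene catalogue after the members were known.

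**Figure D1:**
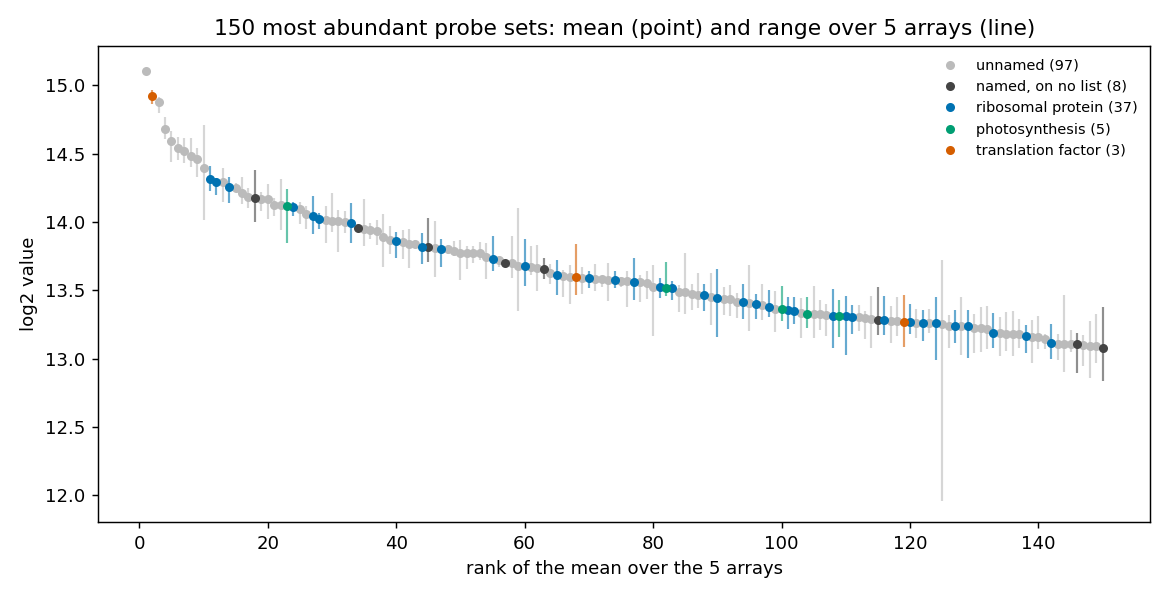
Log2 value (vertical axis) of the 150 members against their rank (horizontal axis), with a point for the mean and a line for the range over the 5 arrays, coloured by locus list. The named points are mostly ribosomal protein probe sets (37), and the longest line is that of an unnamed probe set that was at 11.96 on 1 array.

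By these lists, ribosomal proteins held the most named members. They made up 37 of the 53 named members (69.8%): 17 probe sets of the small subunit and 20 of the large subunit. Photosynthesis held 5, translation factors 3, the Calvin cycle with photorespiration 0, and 8 were on no list. Among all 13937 named and eligible probe sets, 53 (0.38%) were members, against 37 of the 156 on the ribosomal list (23.7%) and 5 of the 9 eligible on the photosynthesis list (55.6%). The annotation names the lists unevenly, with 174 of 232 ribosomal loci measured under a named probe set, 12 of 20 translation factor loci, 11 of 58 photosynthesis loci and 7 of 27 Calvin cycle and photorespiration loci. With 97 members unnamed, the order of these functions among all 150 members cannot be read from the counts. The lists were chosen with the members known, and these shares carry no test.

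The ribosomal list as a whole lay high on the scale. Its 156 probe sets had a median mean of 12.44, against 4.64 for all named and eligible probe sets, and 120 of them (76.9%) stood within the 1000 highest ranks, against 2.96% of all named ones. The list was not uniform, since 16 of its probe sets had a mean under 5 and some sat at the shared minimum. AT2G40010, chosen after its values were seen, was at 2.15 on all 5 arrays, while AT3G09200, another gene of the large subunit list, had a mean of 13.26.

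**Figure D2:**
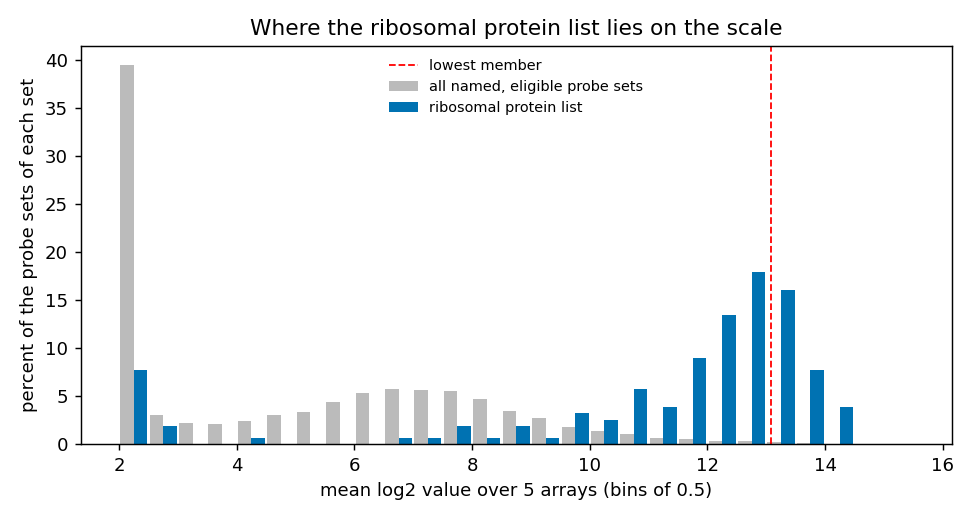
Percent of probe sets (vertical axis) in bins of 0.5 of the mean log2 value (horizontal axis) for all 13937 named and eligible probe sets (grey) and for the 156 of the ribosomal protein list (blue). The blue bars gather around the list's median of 12.44, the dashed line marks the lowest member at 13.08, and 16 ribosomal probe sets lie under 5.

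The highest single-gene member was AT3G60245 of the large subunit list, at rank 11. Its log2 values were 14.27, 14.26 and 14.23 in Columbia and 14.40 and 14.41 in Landsberg erecta, so the ecotypes did not overlap. AT1G52300 and AT1G01100, the next single genes of the large subunit, had 14.05 to 14.15 and 13.74 to 13.93 over the 5 arrays, with their lowest values on Columbia replicate 3. In the small subunit, AT5G20290 had 14.30, 14.25 and 14.14 in Columbia and 14.33 and 14.25 in Landsberg erecta, so that the ecotypes overlapped. AT4G39200 had 14.02, 14.02 and 13.95 in Columbia and 14.07 and 14.06 in Landsberg erecta, without overlap. AT5G15200 (13.69 to 13.92) and, in the large subunit, AT1G67430 (13.67 to 13.88) were again lowest on Columbia replicate 3. Of the 37 ribosomal members, 10 are annotated to 2 or more genes, and 2 of these (253291_at and 252693_s_at) list the same 3 genes, so they are not separate readings.

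Ribosomal protein members were lowest together on Columbia replicate 3. All 37 lay below their own mean on Columbia replicate 3, by a median of 0.12 (a median deviation of -0.12), and 33 had their lowest value there. The 4 exceptions, picked out after their values were seen, were AT2G19730, AT3G62870 and AT3G49910 of the large subunit list, lowest on Columbia replicate 2, and the shared small subunit probe set 263400_s_at, lowest on Columbia replicate 1. AT3G62870, for example, had 13.43, 13.29 and 13.34 in Columbia and 13.55 and 13.44 in Landsberg erecta. A smaller shift the same way stood on Columbia replicate 2, where 26 of the 37 lay below their own mean. They were 17 of the 20 large subunit members (median deviation -0.04) but only 9 of the 17 small subunit members (median deviation -0.002). Of the 156 probe sets of the whole list, 121 lay below their own mean on that array and 28 above. None (0) of the 37 had its highest value on Columbia replicate 3, whereas 15 had it on Landsberg erecta replicate 1, 11 on Landsberg erecta replicate 2 and 10 on Columbia replicate 1. Measured against the mean of the other 4 arrays, Columbia replicate 3 differed by -0.15 in the median, with members between -0.36 and -0.01. The median level of the 37 was 13.52, 13.46 and 13.35 on the Columbia arrays and 13.55 on each Landsberg erecta array. Both subunits were low on Columbia replicate 3, with median deviations of -0.11 for the 17 small subunit members and -0.12 for the 20 large subunit members. The largest gaps included AT3G09200, which had 13.45, 13.24 and 12.99 in Columbia and 13.33 and 13.29 in Landsberg erecta. AT3G11510 of the small subunit had 13.51, 13.21 and 13.08 in Columbia and 13.44 and 13.34 in Landsberg erecta. The 119 ribosomal probe sets below the members' threshold had a median deviation of -0.12 on the same array, 109 of them below their own mean and 3 above. As given above, the anther and stem markers were also at an extreme on this array, and their part in the ribosomal values was not tested. Genes of one complex measured on the same 5 arrays are not independent readings, and replicates have no order.

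**Figure D3:**
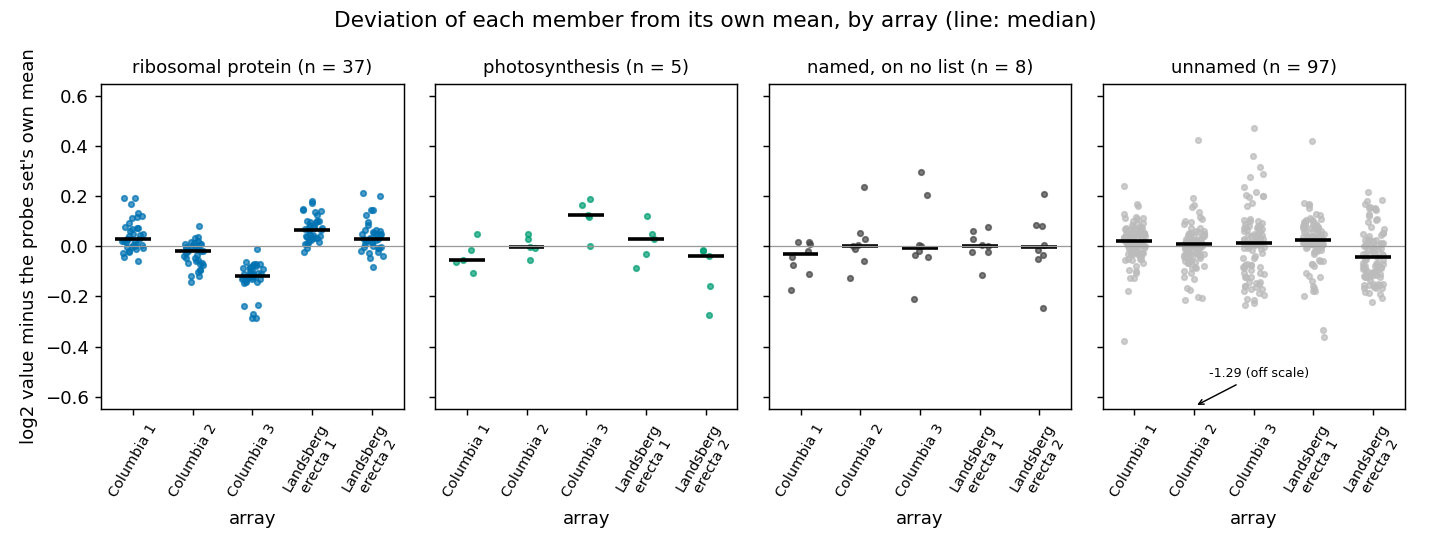
Log2 value of each member minus its own mean over the 5 arrays (vertical axis) for each array (horizontal axis), in panels for the ribosomal protein, photosynthesis, other named and unnamed members, with black lines for medians. Ribosomal members lie below 0 on Columbia replicate 3 and photosynthesis members at or above 0, and 1 unnamed value at -1.29 is marked as off the scale.

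Photosynthesis members went the other way on the same array. The 5 probe sets were PSAE-1 and PSAN, which encode subunits of photosystem I, ATPC1, the gamma subunit of the plastid ATP synthase, AT4G01150, which RefSeq also calls CURVATURE THYLAKOID 1A, and AT2G26500, which was on the photosynthesis list by locus. All 5 lay above their own mean on Columbia replicate 3 (median deviation 0.12), 4 of them with their highest value there, and all 5 lay below it on Landsberg erecta replicate 2. PSAE-1 had 14.17, 14.17 and 14.24 in Columbia and 14.17 and 13.84 in Landsberg erecta, where the low value on replicate 2 stood apart. AT2G26500 had 13.46, 13.47 and 13.71 in Columbia and 13.49 and 13.48 in Landsberg erecta, with 1 high Columbia array. ATPC1 had 13.31, 13.36 and 13.53 in Columbia and 13.27 and 13.34 in Landsberg erecta. PSAN had 13.30, 13.34 and 13.43 in Columbia and 13.34 and 13.16 in Landsberg erecta. AT4G01150 had 13.23, 13.33 and 13.33 in Columbia and 13.45 and 13.32 in Landsberg erecta, where replicate 1 was the highest of the 5 arrays. The ecotypes overlapped for each of these genes.

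The wider photosynthesis list and the Calvin cycle list showed where these members sit. On Landsberg erecta replicate 2, 11 of 11 probe sets of the whole photosynthesis list and 7 of 7 of the Calvin cycle and photorespiration list lay below their own means. On Columbia replicate 3, 10 of 11 and 7 of 7 lay above. RCA and LHCB4.1, left out of the members by the rule, belong to the first list. The Calvin cycle list held 0 members, and its highest probe set, AT1G32470, stood at rank 157 with a mean of 13.06, just outside the threshold.

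Translation factors supplied a member near the top of the ranking. The probe set 247644_s_at, annotated to 4 genes that are all on the translation factor list, stood at rank 2 with 14.92, 14.97 and 14.92 in Columbia and 14.87 and 14.92 in Landsberg erecta. Its arrays lay within 0.10 of each other. The single-gene member of that list, AT5G19510, was among the more variable named members, with 13.46, 13.21 and 13.09 in Columbia and 13.37 and 13.21 in Landsberg erecta. The remaining translation factor probe set is shared by 2 genes and ran from 13.47 to 13.84, with its highest value on Landsberg erecta replicate 2.

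Named members outside the lists were few. GAPC2 encodes a cytosolic glyceraldehyde-3-phosphate dehydrogenase of glycolysis and had the smallest spread of the named members. It had 13.71, 13.70 and 13.70 in Columbia and 13.70 and 13.69 in Landsberg erecta. Columbia replicates 2 and 3 and Landsberg erecta replicate 1 all stood at 13.702, so the small spread rests partly on equal values. The array's own 3 prime control for GAPDH, a separate probe set, ran from 12.59 to 13.02 and had both of its extremes in Landsberg erecta. The middle and 5 prime GAPDH controls were highest on Columbia replicate 1 (12.99 and 11.90) and lowest on Landsberg erecta replicate 1 (12.51 and 11.34). The 3 prime and 5 prime GAPDH controls lay further apart in Landsberg erecta (12.59 and 11.34, 13.02 and 11.80) than in Columbia (12.79 and 11.90, 12.74 and 11.82, 12.79 and 11.82). For the actin and ubiquitin controls, this distance did not separate the ecotypes. Its part in the ecotype differences was not tested. AT1G78040 was also flat, at 13.94 on Columbia replicate 1 and at the identical value of 13.96 on the other 4 arrays. AT1G09310 had 14.00, 14.17 and 14.38 in Columbia and 14.21 and 14.13 in Landsberg erecta, so its Columbia arrays spanned those of Landsberg erecta. AT1G74470, listed in RefSeq as geranylgeranyl reductase, an enzyme that supplies the phytol side chain of chlorophyll, had 13.52 on Columbia replicate 2 and 13.17 to 13.25 elsewhere. PRXR1, a peroxidase gene named after its values were seen, ran from 13.59 to 13.74. AT1G54410, a dehydrin gene (HIRD11) of the kind associated with water deficit, had 13.10, 12.95 and 13.38 in Columbia and 13.15 and 12.83 in Landsberg erecta. It had the largest SD within ecotype of the single-gene members (0.22) and held the last rank. The other 2 are shared probe sets, 1 of 2 cold-responsive genes (13.71 to 14.03) and 1 of 3 histone 3.3 genes (12.90 to 13.19).

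Means on both sides of the threshold lay close together. The last single-gene members were AT2G41840 at rank 138 (mean 13.17), AT3G49910 at rank 142 (13.11) and AT1G54410 at rank 150 (13.08). The first single genes outside were AT3G24830 at rank 152 (13.08), AT1G08360 at rank 154 (13.07) and AT1G32470 at rank 157 (13.06). The first 2 of these are on the large subunit list.

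The 97 unnamed members held 9 of the 10 highest ranks. The highest probe set of all, 264474_s_at, had 15.09, 15.08 and 15.13 in Columbia and 15.12 on each array of Landsberg erecta, a range of 0.05. Of the 97, 27 had their lowest value on Columbia replicate 3, 27 had their highest value there, and 41 had their lowest value on Landsberg erecta replicate 2. Their median difference, Columbia minus Landsberg erecta, was 0.02, with 55 above and 42 below 0. The probe set at rank 10, 247718_at, had 14.02, 14.26 and 14.71 in Columbia and 14.47 and 14.50 in Landsberg erecta, so that its Columbia arrays lay on both sides. The most variable member, 263548_at, had 13.49, 11.96 and 13.72 in Columbia and 13.67 and 13.40 in Landsberg erecta. Its SD within ecotype of 0.79 thus came from Columbia replicate 2. The unnamed probe sets printed here were chosen after their values were seen.

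The choice by the mean over these arrays fixes much of the overlap between the members and each array's highest probe sets, which is given as a description. Each array's own 150 highest probe sets included 135 to 145 of the members, fewest on Columbia replicate 3, and 122 members were within the highest 150 on all 5 arrays. The 150 highest of Columbia and the 150 highest of Landsberg erecta shared 139, or 92.7% of each. Any 2 arrays shared 128 to 143, and the pairs that included Columbia replicate 3 shared 128 to 132. Of the members, 62 had their lowest value on Columbia replicate 3 and 45 on Landsberg erecta replicate 2, against 12 to 17 on each other array. In the next 1000 ranks the same arrays were lowest most often, with 253 and 269 against 149 to 171.

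The spread between arrays of an ecotype was small among the members. They lay at the top of the scale, which ended at 15.13, and whether signal flattens there was not tested. Choosing by a high mean also disfavours probe sets that were low on an array. The median SD within ecotype was 0.086, against 0.141 for the next 1000 ranks and 0.145 for all 16428 probe sets that varied. It was 0.08, 0.09 and 0.10 in ranks 1 to 50, in ranks 51 to 100 and in the 50 ranks after those. The range over the 5 arrays was under 0.1 for 9 members and over 0.5 for 6. Identical values on at least 2 arrays occurred in 44 members (29.3%) in 19.5% of the next 1000 ranks, and in 5053 of the 11956 other probe sets with a mean above 5, and such ties may make a spread look smaller than it is.

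**Figure D4:**
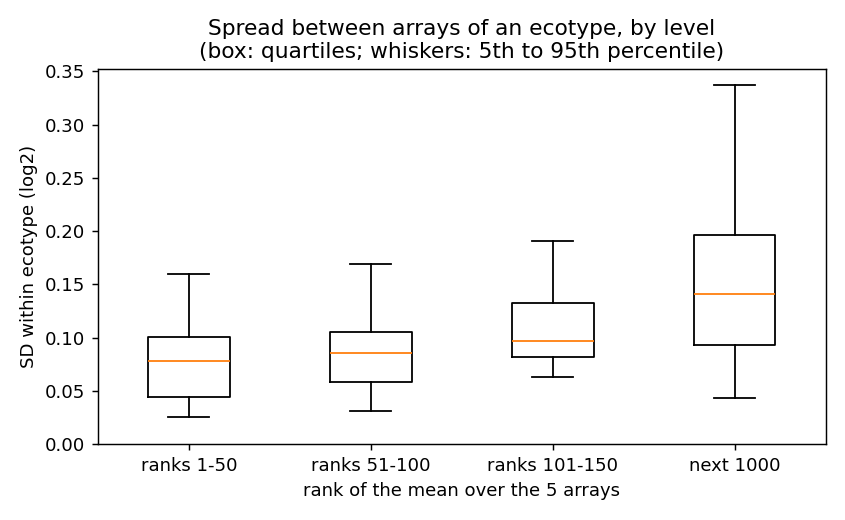
SD within ecotype on the log2 scale (vertical axis) for 3 bands of member ranks and for the next 1000 ranks (horizontal axis), with boxes for quartiles, centre lines for medians and whiskers from the 5th to the 95th percentile. The median is 0.08 in ranks 1 to 50 and 0.14 in the next 1000.

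No member was called different between Columbia and Landsberg erecta. The limma fit over 22746 probe sets with Benjamini-Hochberg adjustment called 0 of the 150 in either direction, as it called 0% of all probe sets tested, and the smallest limma adjusted p of a member was 1. At an unadjusted limma p under 0.05, 2 members were higher in Columbia (1.33%, against 1.17% of all probe sets tested and 1.61% of those that varied) and 3 were higher in Landsberg erecta (2.0%, against 0.62% and 0.858%). In the next 1000 ranks these shares were 2% and 2.3%, so the members' shares were near those of other abundant probe sets. The 95% interval of the difference lay within 2-fold for 149 members (99.3%, against 93.2% of the next 1000) and within 1.5-fold for 139 (92.7%, against 65.1%). The exception at 2-fold was 263548_at. The limits given above for the members' spread hold for these intervals too. The median difference, Columbia minus Landsberg erecta, was -0.03 over the members and 0.00 over all probe sets tested. It was -0.00154 without Columbia replicate 3 and 0.00317 without Landsberg erecta replicate 1. A fit with 1 Landsberg erecta array takes its spread from Columbia alone, so no calls are read from it. The unnamed members 252929_at and 259892_at, picked after their values were seen, had nearly equal Columbia values (SD 0 and 0.00061). Their differences changed sign with the array left out. They were -0.04 and 0.18 without Landsberg erecta replicate 1, and 0.08 and -0.05 without replicate 2.

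The 3 named genes with the smallest unadjusted p in each direction show the size of these differences. AT3G60245 differed by -0.15 (95% interval -0.20 to -0.10). AT3G49910 of the large subunit list had 13.10, 13.00 and 13.00 in Columbia and 13.21 and 13.26 in Landsberg erecta, a difference of -0.20 (95% interval -0.33 to -0.08). AT5G27850, also of the large subunit list, had 13.68, 13.58 and 13.53 against 13.71 and 13.88, a difference of -0.19 (95% interval -0.43 to 0.04). Higher in Columbia were GAPC2 by 0.01 (95% interval -0.01 to 0.03), PSAE-1 by 0.19 (-0.17 to 0.54) and PSAN by 0.11 (-0.14 to 0.35). Each of these 6 had a limma adjusted p of 1. Both unnamed members with p under 0.05 and higher in Columbia, 252022_at and 257749_at, differed by 0.15 and 0.23, and 245311_at differed by -0.25.

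**Figure D5:**
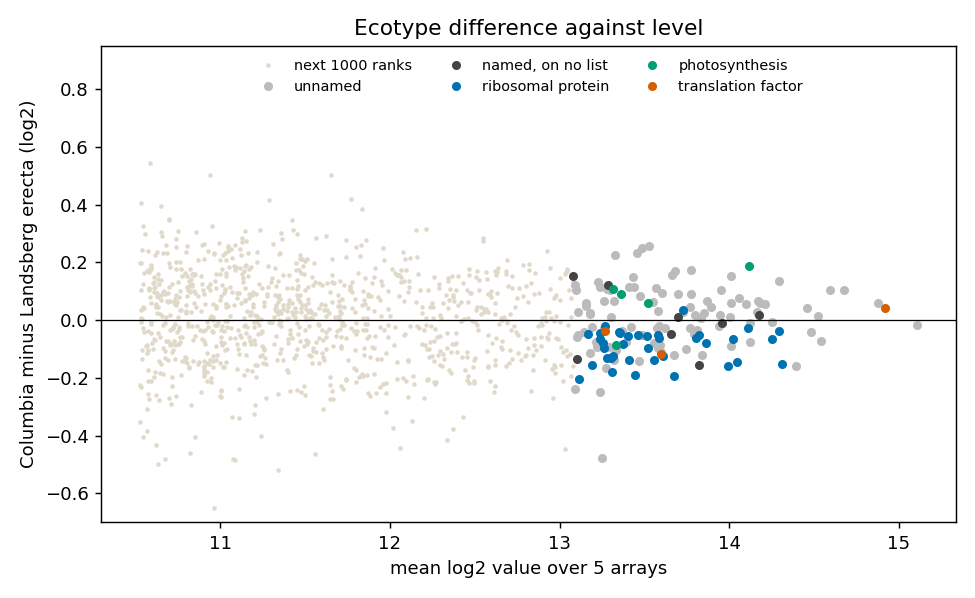
Columbia minus Landsberg erecta on the log2 scale (vertical axis) against the mean log2 value over the 5 arrays (horizontal axis), with members coloured by locus list and the next 1000 ranks as small points. Ribosomal protein members lie below 0 in 36 of 37 cases, and the lowest member point, at -0.48, is the unnamed 263548_at.

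There was no overlap between ecotypes for 14 members higher in Columbia (9.33%, against 3.92% of all probe sets tested and 5.42% of those that varied) and for 19 higher in Landsberg erecta (12.7%, against 2.92% and 4.05%). In the next 1000 ranks the shares were 8.3% and 10.4%. All 14 of the first kind were unnamed probe sets, and 11 of the 19 of the second kind were on the ribosomal list (29.7% of its 37 members). That share was 32.8% among the 119 ribosomal probe sets below the members' threshold, so it was not particular to the members.

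Ribosomal members had lower means in Columbia in 36 of 37 cases, by a median of -0.08 and between -0.20 and 0.03, and none passed the adjusted test. The exception was AT2G34480 of the large subunit list, which had 13.90, 13.69 and 13.64 in Columbia and 13.77 and 13.65 in Landsberg erecta. By subunit the median was -0.06 for the small one (17 of 17 lower in Columbia) and -0.10 for the large one (19 of 20). Over all 37, the median was -0.06 after quantile normalization and -0.06 with equal array medians. Without Columbia replicate 3 it was -0.04, with 27 of 37 lower in Columbia. The 156 probe sets of the whole list had a median difference of -0.13, with 142 lower and 7 higher in Columbia. The 25S ribosomal RNA control of the array was on average higher in Columbia (8.01 ± 0.22, SD, n = 3) than in Landsberg erecta (6.85 ± 0.44, SD, n = 2), and its part in these values was not tested. Photosynthesis members had a median difference of 0.09, with 4 of 5 above 0. That median was 0.02 without Columbia replicate 3 and 0.02 without Landsberg erecta replicate 2. The 3 translation factor probe sets had a median of -0.04, which was 0.05 without Columbia replicate 3, so no direction was read from it.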

How the data were processed

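RNA was measured on 5 Affymetrix arrays, from biotin-labelled cRNA made from 2 ug of total RNA per the labels' protocols. The deposited values are on a log2 scale, as their range shows. Their background correction, normalization and summarization by the authors are not given in the sources used here. Gene names came from the platform annotation (13513 probe sets with 1 gene, 503 with several), updated by gene identifier to RefSeq TAIR10.1, in which 13436 matched. No coordinates were used. Differences are Columbia minus Landsberg erecta, fitted with limma 3.58.1 in R 4.3.3 (lmFit, eBayes, no covariate or filter). P-values were adjusted by Benjamini-Hochberg across the 22746 probe sets, with calls at 0.05. The fit was tested on simulated data. P-values measure only the spread between these arrays. Members, lists and tests were chosen with earlier results of these data known. Named genes were single-gene members: the 10 highest means, up to 3 per group or list, the 3 smallest p per direction, the 5 largest and 3 smallest SD, the 3 on each side of the threshold, and the tissue markers. Text patterns (15 groups) gave the planned grouping, and 5 lists of 337 loci were added. Alternatives were other normalizations, filters, variance models, rankings, numbers of members, left-out arrays and the replicate number as a block. Figures used matplotlib 3.10.9 in Python 3.11.15.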

Additional observations from a re-analysis of the deposited data

How the results depend on the processing

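Under the alternatives, 199 values stayed within 1.5 times the count or within the spread between arrays, and 49 moved by more. Members higher in Columbia at an unadjusted limma p under 0.05 numbered 2, and 4 with equal array medians, 1 with a trended or robust eBayes, 0 without the lowest 50% of means and 1 in the top 100. Those higher in Landsberg erecta numbered 3, and 5 after quantile normalization, 1 without the lowest 50% of means, 1 in the top 100 and 8 in the top 300. Members without overlap and higher in Landsberg erecta numbered 19, and 12 with equal array medians, 11 in the top 100 and 37 in the top 300; those higher in Columbia were 27 in the top 300. The median difference of the members was -0.00505 with equal array medians. With single arrays left out, adjusted calls ranged from 0 to 4 for Columbia and 0 to 1 for Landsberg erecta as the higher group, unadjusted ones from 1 to 18 and 2 to 11, members without overlap from 16 to 50 and 24 to 54, and the median difference from -0.0452 to 0.00317; with 1 array left in Landsberg erecta, it was assumed to vary like Columbia. The adjusted calls above 0 came only from the fits with 1 Landsberg erecta array, as did the highest unadjusted count for Columbia. Such a fit takes its spread from Columbia alone, so its counts are not read as calls. With any Columbia array left out, the adjusted calls stayed at 0. With arrays left out, or with other normalizations, variance models or filters, no share over all probe sets was worked out beside these counts. Fewer arrays make a lack of overlap more frequent by chance, so those counts cannot be read against the counts over 5 arrays. Counts in the top 100 and the top 300 come from different numbers of probe sets. The median of PSAE-1 and PSAN, the photosynthesis members by text patterns, was 0.148 and ranged from 0.0197 to 0.277.

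Text patterns placed 2 members in the top 100 and 15 in the top 300, with 1 and 4 in photosynthesis, and 4 there with RCA and LHCB4.1 put back. By locus, the top 100 held 23 ribosomal, 3 photosynthesis and 5 unlisted named probe sets, and the top 300 held 73 ribosomal, 29 unlisted and 185 unnamed ones. Without _s_at and _x_at probe sets, 1 translation factor remained. Ranking again by the lowest value, by ecotype or with an array left out kept 144 to 150 of the members. Apart from the numbers of samples and members, the cause was not tested.

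The labels do not say that replicate numbers pair arrays, and deviations of equal numbers correlated at -0.02 and 0.08 across probe sets. With the replicate block, the adjusted calls stayed at 0, and the unadjusted ones were 4 toward Columbia and 10 toward Landsberg erecta. The share over all probe sets was not worked out for the block, so no change in the members is read from these counts. The median difference was -0.00154, as it is without Columbia replicate 3, which has no partner in the block.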
